A study of Mus musculus with 8 samples.

Results

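The calcium/calmodulin-dependent protein kinases (CaM kinases) described here are 10 genes of the mouse hippocampus: the CaMKII genes Camk2a, Camk2b, Camk2d and Camk2g, the upstream kinases Camkk1 and Camkk2, the CaMKI genes Camk1, Camk1d and Camk1g, and Camk4. They were taken by gene symbol from a table of 56575 features, of which 24338 carry a symbol, and each of the 10 symbols matched 1 row. The libraries came from hippocampi of 8-week-old C57BL/6 mice, 4 labelled Slm2KO and 4 labelled WT. SLM2 is an RNA-binding protein of the STAR family, encoded by Khdrbs3, that regulates neuronal splicing. The study asked how gene expression and splicing differ between the genotypes, and the table answers the first of these questions, with 1 value per gene. The labels give no allele, sex or litter. Nor do they tie each numbered sample to its own mouse, and the spread behind every p-value may therefore be partly technical. Each value is a normalised read count: the reads of a gene divided by 1 DESeq size factor per library, not divided by gene length.

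CaM kinases turn a rise of calcium into protein phosphorylation. Calcium-loaded calmodulin displaces a regulatory segment from the catalytic site, and in CaMKII a threonine in that segment is then phosphorylated by a neighbouring subunit, which keeps the enzyme active after calcium has fallen. CaMKII is abundant at the postsynaptic side of hippocampal excitatory synapses and is needed for long-term potentiation there, while CaMKI and CaMKIV are switched on by the CaM kinase kinases and act on cytoskeleton, translation and gene transcription.

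The stretch that carries this threonine is printed for 3 of the 4 CaMKII genes, to show where their coding bases differ: Camk2b, Camk2d and Camk2g (chromosomes 11, 3 and 14), from 4 codons before the threonine to 12 after it, as 51 coding bases of GENCODE vM21 transcripts on the mm10 assembly, 5′ to 3′; capitals mark positions at which the 3 genes do not all have the same base.
Camk2b: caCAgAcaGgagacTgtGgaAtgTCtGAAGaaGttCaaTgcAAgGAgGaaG
Camk2d: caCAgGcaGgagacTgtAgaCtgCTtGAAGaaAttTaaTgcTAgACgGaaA
Camk2g: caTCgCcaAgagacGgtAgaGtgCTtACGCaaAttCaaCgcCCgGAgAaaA
In this window 29 of 51 bases were identical in all 3 genes, although 15 of 17 codons encoded the same amino acid in each. Over all annotated transcripts of the 10 kinases, between 0% and 0.161% of a gene's stretches of 30 bases also occurred in another of the 10. Camk2a shared 8 such stretches with Camk2b, 2 with Camk2d, 5 with Camk1d and 2 with Camkk2. Camk2b shared 6 with Camk1d, the pair with the longest shared run, 43 bases. Camk2b, Camk2d and Camk2g shared none with each other.

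Camk2a and Camk2b, the CaMKII genes best known from forebrain synapses, had the highest read counts of the 10. Camk2a, the alpha subunit (chromosome 18, 60925631 to 60988152, plus strand), had normalised read counts of 212310, 233053, 214778 and 170126 in libraries labelled Slm2KO 1 to 4, against 211325, 238665, 198987 and 222034 in WT 1 to 4. The groups overlapped, the lowest of the 8 libraries was Slm2KO 4 and the highest was WT 2. By mean count Camk2a ranked 22nd of the 24338 rows with a symbol. Camk2b, the beta subunit, which also binds actin (chromosome 11, 5969668 to 6065750, minus strand), had counts of 89191, 88498, 88675 and 67708 in Slm2KO 1 to 4, against 83849, 95232, 78055 and 85715 in WT 1 to 4. Here too Slm2KO 4 lay lowest, apart from 3 Slm2KO-labelled libraries that were close together and within the span of WT.

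The other CaMKII subunits were much lower. Camk2g, the gamma subunit, which can carry calmodulin towards the nucleus (chromosome 14, 20734874 to 20794088, minus strand), had counts of 13998, 12325, 12228 and 9923 in Slm2KO 1 to 4, against 13022, 12304, 11623 and 12014 in WT 1 to 4. The Slm2KO-labelled libraries spanned the WT range on both sides. Camk2d, the delta subunit, best known from heart muscle (chromosome 3, 126596951 to 126846325, plus strand), had counts of 1374, 973, 1191 and 1556 in Slm2KO 1 to 4, against 1450, 1227, 1363 and 1040 in WT 1 to 4. Camk2d was highest in Slm2KO 4, the library in which the other CaMKII genes were lowest.

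Of the CaM kinase kinases, which phosphorylate CaMKI and CaMKIV in their activation loop, Camkk1 was the more abundant transcript. Camkk1, the alpha form (chromosome 11, 73019007 to 73042063, plus strand), had counts of 38727, 42622, 41290 and 32510 in Slm2KO 1 to 4, against 35799, 41292, 37753 and 38050 in WT 1 to 4. Camkk2, the beta form, which also phosphorylates AMP-activated protein kinase (chromosome 5, 122731173 to 122779412, minus strand), had counts of 8568, 9968, 8947 and 7883 in Slm2KO 1 to 4, against 8234, 9890, 8707 and 9560 in WT 1 to 4. For both genes Slm2KO 2 was the highest library and Slm2KO 4 the lowest.

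The CaMKI genes and Camk4, which lie downstream of the CaM kinase kinases, had lower counts than either. Camk1, the alpha form of CaMKI (chromosome 6, 113334124 to 113343942, minus strand), had counts of 4136, 3887, 4236 and 4203 in Slm2KO 1 to 4, against 4032, 3981, 4083 and 4108 in WT 1 to 4. It was the steadiest of the 10 kinases, with its highest library 1.09-fold above its lowest. The end of its locus overlaps over 945 bases with Ogg1, a DNA repair gene on the opposite strand with a mean count of 720, and the library kit does not mark strand, so reads there cannot be assigned with certainty. Camk1d, the delta form of CaMKI (chromosome 2, 5293458 to 5714763, minus strand), had counts of 6103, 7263, 6050 and 5801 in Slm2KO 1 to 4, against 5959, 6720, 5879 and 6843 in WT 1 to 4. Camk1g, the gamma form, a membrane-anchored kinase of neurons (chromosome 1, 193346347 to 193370282, minus strand), had counts of 5270, 4310, 4586 and 3439 in Slm2KO 1 to 4, against 4489, 4297, 3271 and 4380 in WT 1 to 4. The highest library of Camk1g, Slm2KO 1, was 1.61-fold above its lowest, WT 3. For Camk2d this ratio was slightly lower, but its SD on the log2 scale over the 8 libraries, 0.23, was the highest of the 10, just above Camk1g at 0.22. Camk4, a largely nuclear kinase that phosphorylates CREB (chromosome 18, 32939041 to 33195767, plus strand), had counts of 2210, 2534, 2157 and 2133 in Slm2KO 1 to 4, against 2210, 2158, 2181 and 2614 in WT 1 to 4. Its values were close together except for 1 high library in each group, Slm2KO 2 and WT 4.

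**Figure D1:**
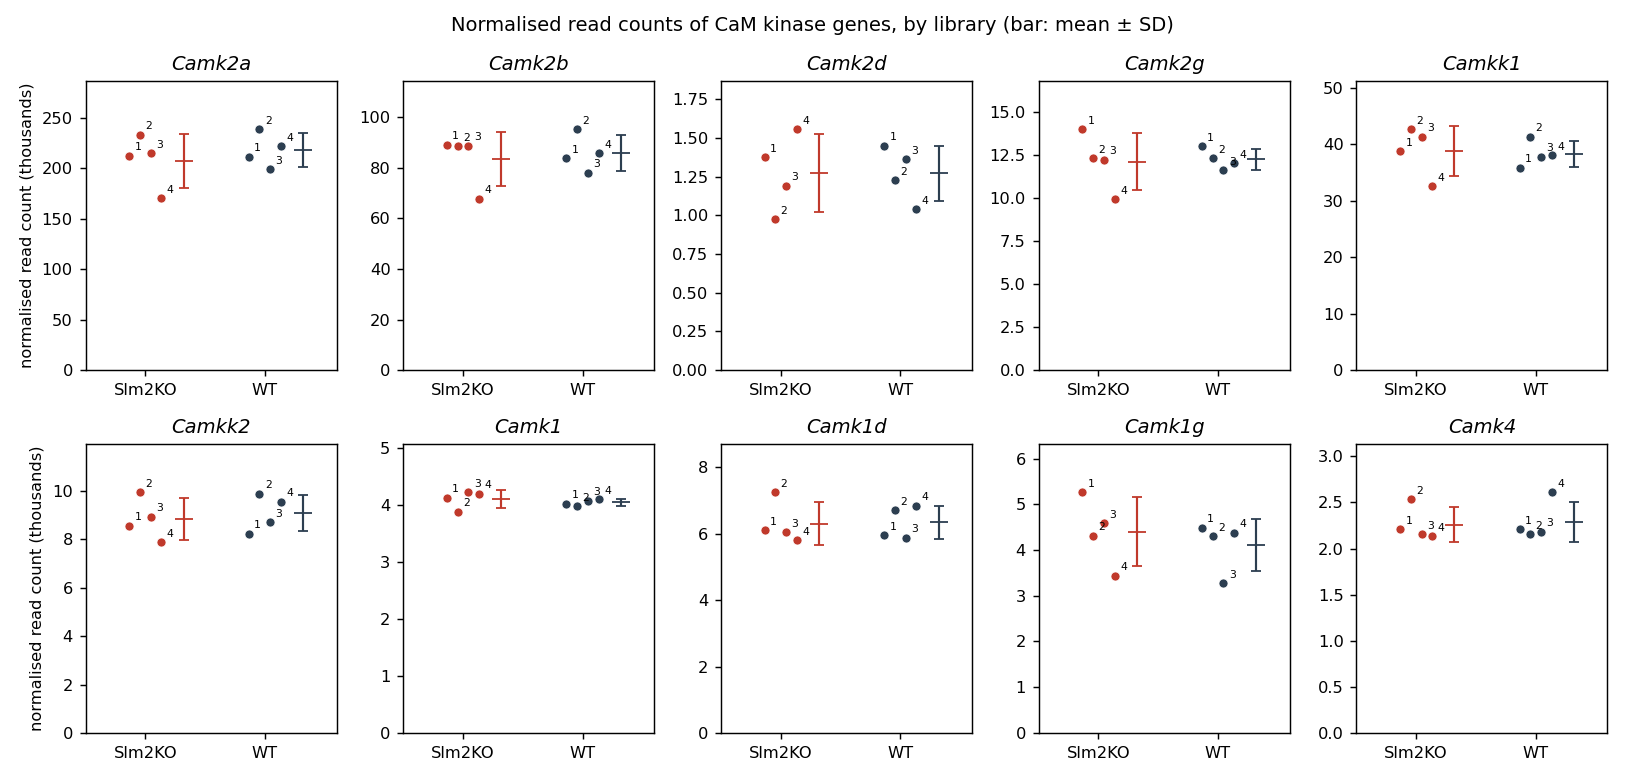
Normalised read counts (vertical axes, linear and each from 0, in the unit the axis label gives) of the 10 kinase genes in the libraries labelled Slm2KO (left, red) and WT (right, dark); digits are replicate numbers and bars are mean ± SD, n = 4. The groups overlap in every panel, and Slm2KO 4 is the lowest point for 7 of the 10 genes.

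The libraries held 104020058 to 125985224 recovered reads each. The thinnest member, Camk2d, rested on 925 to 1486 reads in a library and Camk2a on 157917 to 264056. All 47 marker genes of hippocampal neurons, glia, vessels and choroid plexus were detected, the lowest with a mean count of 120 (Avpr1b, a CA2 vasopressin receptor). Khdrbs3 itself had counts of 29676, 33366, 30022 and 25932 in Slm2KO 1 to 4, against 20662, 23542, 19458 and 24544 in WT 1 to 4. Each library labelled Slm2KO was above each WT library, 1.35-fold in the fit (95% interval 1.17- to 1.56-fold), which did not pass adjustment over all features (limma adjusted p = 1.00). A value for the whole gene does not show loss of part of it, and the labels do not say which part was deleted, so Slm2KO stands throughout for the label of a library.

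To compare genes with each other, counts were divided by the length of each gene's merged exons. On this scale, levels over the 8 libraries (mean ± SD, n = 8) were 28488 ± 2856 normalised reads per kb for Camk2a, 10329 ± 887 for Camkk1 and 9273 ± 922 for Camk2b. Camk2a stood 2.76-fold above Camkk1 with no overlap of their ranges, while Camkk1 and Camk2b overlapped. A lower tier held Camk2g at 1903 ± 182 and Camk1g at 1542 ± 231 per kb, whose ranges also overlapped. Camk1d, Camkk2, Camk4 and Camk1 followed at mean levels of 852, 821, 698 and 683 per kb, each overlapping its neighbour. Camk2d was last at 56.5 ± 8.93 per kb, 12.1-fold below Camk1 and without overlap. The order depends on the length used. Per kb of the longest protein-coding transcript, Camk2b had a mean level of 21033, above Camkk1 at 11246, and Camk1, whose annotation includes retained-intron transcripts, had a mean level of 2729, above Camkk2 at 1845. Camk2a remained highest and Camk2d lowest, at 42789 and 230 per kb of that transcript. The next lowest there was Camk4 at 837, so the gap below which Camk2d lay was smaller on this scale.

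**Figure D2:**
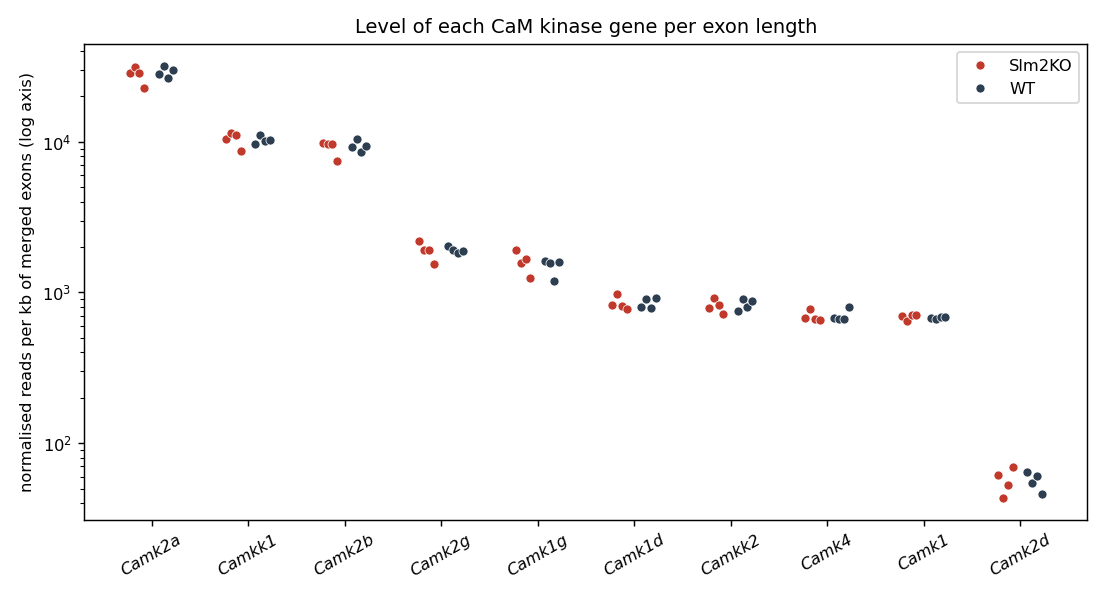
Level of each kinase gene in normalised reads per kb of merged exons (vertical log axis), 1 point per library, Slm2KO left of WT for each gene. Camk2a sits above all others and Camk2d below all others in each library, and the 2 groups lie on top of each other for each gene.

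The first comparison asked whether any kinase gene differed between the genotype labels, with limma on log2(count + 1) across the 25667 features with a mean count of at least 10, which all 10 kinases passed. None of the 10 passed an adjusted p of 0.05, where 0.0039% of all features did (1 feature, Khdrbs2, encoding the STAR family protein SLM1). Khdrbs2 was 2.26-fold higher in Slm2KO (limma adjusted p = 0.0076), with each Slm2KO library above each WT library. None of the 10 kinases had an unadjusted p under 0.05, against 3.52% of all features, and for none did the groups fail to overlap, against 2.5% of all features. edgeR's quasi-likelihood test and DESeq2 on the recovered reads called 0 of the 10 as well.

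Mean counts of the CaMKII genes differed little between the labels. Camk2a averaged 207567 ± 26620 in Slm2KO and 217753 ± 16824 in WT (SD, n = 4 each), a log2 difference of -0.08 (SE 0.099; 95% interval 0.815- to 1.11-fold; limma adjusted p = 1.00). Camk2b averaged 83518 ± 10544 in Slm2KO and 85713 ± 7135 in WT, a log2 difference of -0.04 (interval 0.834- to 1.13-fold). Neither difference exceeded the spread within a group. Camk2g averaged 12119 ± 1674 in Slm2KO and 12241 ± 591 in WT, a log2 difference of -0.02 (interval 0.852- to 1.13-fold). Camk2d averaged 1273 ± 249 in Slm2KO and 1270 ± 178 in WT, with the widest interval of the 4, 0.791- to 1.25-fold; its log2 difference was -0.01, opposite in sign to the difference of the means.

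The kinases of the CaMKK cascade gave fitted differences of the same small size. Camkk1 averaged 38787 ± 4486 in Slm2KO and 38223 ± 2276 in WT (SD, n = 4 each), a log2 difference of 0.02, and Camkk2 averaged 8841 ± 871 in Slm2KO and 9098 ± 761 in WT, a log2 difference of -0.04. Their intervals were 0.886- to 1.15-fold and 0.855- to 1.10-fold. Camk1 averaged 4115 ± 158 in Slm2KO and 4051 ± 56.3 in WT, and its interval of 0.941- to 1.10-fold was the narrowest of the 10. Camk1d averaged 6304 ± 652 in Slm2KO and 6350 ± 502 in WT (interval 0.874- to 1.12-fold), and Camk4 averaged 2259 ± 187 in Slm2KO and 2291 ± 216 in WT (interval 0.869- to 1.12-fold). The fitted difference of Camk1g was the largest of the 10 at 0.09 (4401 ± 758 in Slm2KO and 4109 ± 564 in WT), and its interval, 0.865- to 1.32-fold, was the second widest on the log2 scale after Camk2d. Exact two-sided permutation tests over the 8 values of a gene gave p of 0.486 for Camk1 to 1.00 for Camk2d; with 70 assignments the smallest possible p is 0.0286.

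The limit these data set is narrow for most members. The interval excluded a 1.5-fold change in either direction for 10 of 10 kinases, against 65.7% of all features, and a 1.25-fold change for 8 of 10, against 42.9% of all features; the exceptions were Camk2d and Camk1g. All features reach down to a mean count of 10, whereas Camk2d, the lowest kinase, averaged 1270 in WT. No set of features matched by count was compared. The median log2 difference was -0.02 over the 10 kinases and -0.01 over all features. Sample numbers in the labels fall into a lower and a higher series, with 2 libraries per genotype in each, and the sign of the difference was the same in both series for 4 of 10 kinases. For Camk2d the log2 difference was -0.21 in the lower and 0.19 in the higher series.

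**Figure D3:**
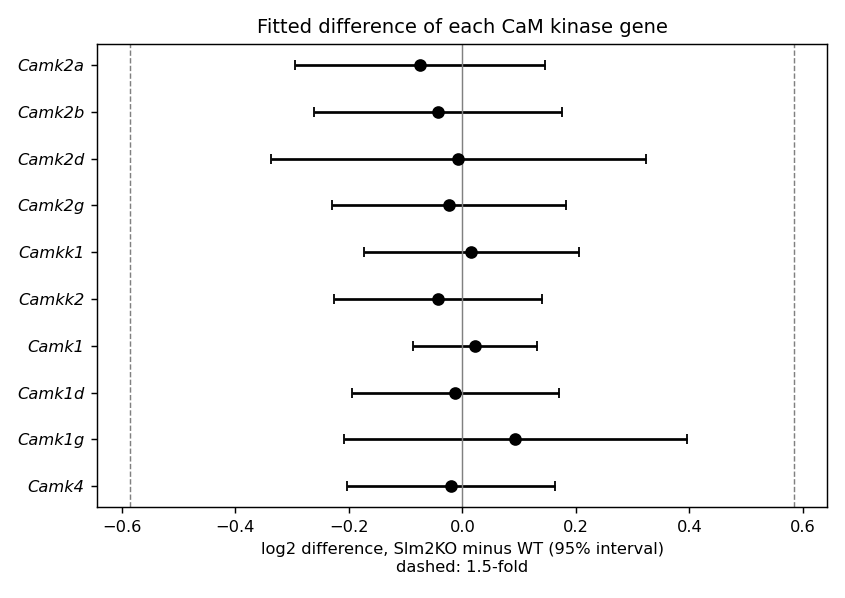
Fitted log2 difference, Slm2KO minus WT (horizontal axis), of each kinase gene with its 95% confidence interval from limma, n = 4 libraries per label; dashed lines mark 1.5-fold. Each interval crosses 0 and lies inside the dashed lines.

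The second comparison concerned the make-up of CaMKII, the share of each gene in the per-length sum of the 4, which needs no scaling between libraries. Camk2a made up 70.3%, 72.8%, 71.1% and 71.6% of the sum in Slm2KO 1 to 4, against 71.5%, 72.0%, 71.9% and 72.4% in WT 1 to 4. Camk2b made up 24.2%, 22.6%, 24.0% and 23.3% in Slm2KO 1 to 4, against 23.2%, 23.5%, 23.1% and 22.9% in WT 1 to 4. The proportion of alpha to beta transcript was thus nearly constant across libraries: the ratio of Camk2a to Camk2b per kb of merged exons was 3.04 ± 0.137 in Slm2KO and 3.11 ± 0.0455 in WT (SD, n = 4 each). The shares themselves depend on the length used. Per kb of the longest protein-coding transcript, Camk2a made up 63.2% in Slm2KO and 63.8% in WT, and Camk2b 31.4% in Slm2KO and 31.0% in WT.

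Camk2g and Camk2d made up the small remainder. Camk2g made up 4.87% ± 0.388 in Slm2KO and 4.73% ± 0.355 in WT, and Camk2d 0.150% ± 0.0494 in Slm2KO and 0.140% ± 0.0265 in WT (SD, n = 4 each). In percentage points, Slm2KO minus WT, the mean difference was -0.508 for Camk2a, 0.361 for Camk2b, 0.138 for Camk2g and 0.00954 for Camk2d. Exact two-sided permutation p ran from 0.371 to 0.83 and was 0.83 for each after adjustment over the 4 shares, which sum to 100% and are not independent. Without division by length, Camk2a took 68.2% ± 1.09 of CaMKII reads in Slm2KO and 68.7% ± 0.398 in WT, and Camk2b 27.4% ± 0.795 in Slm2KO and 27.0% ± 0.293 in WT. On the same scale Camk2d took 0.431% in Slm2KO and 0.404% in WT. Per kb of the longest protein-coding transcript its share was 0.360% in Slm2KO and 0.338% in WT. Per kb of merged exons the Camk2d share ran from 0.101% in Slm2KO 2 to 0.217% in Slm2KO 4, a wider span than the difference between the group means.

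**Figure D4:**
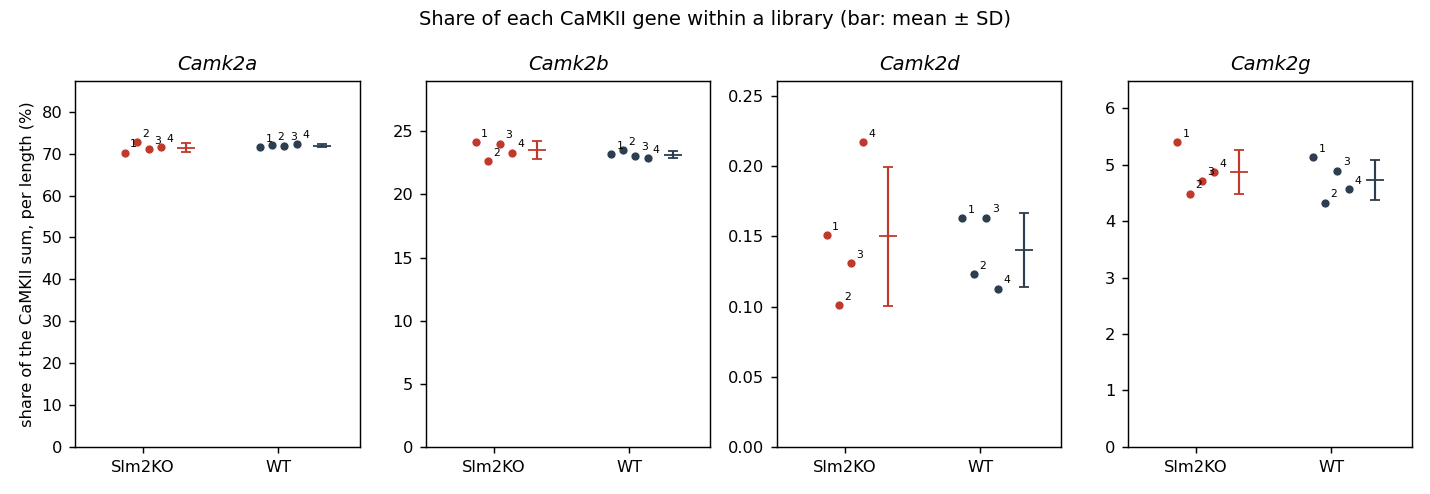
Share in percent (vertical axes, each from 0) of each CaMKII gene in the per-length sum of the 4, for libraries labelled Slm2KO (left) and WT (right); digits are replicate numbers and bars are mean ± SD, n = 4. Camk2a lies at 70.3% to 72.8% in all 8 libraries, and the groups overlap for each gene.

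Several kinases departed from their means in the same libraries. Slm2KO 4 held the lowest value of 7 of the 10 kinases, among them Camk2a, Camk2b, Camk2g and Camkk1 at -0.32, -0.31, -0.29 and -0.24 from the gene mean on the log2 scale. The share of all features that were lowest in this library was not computed. Slm2KO 4 had the fewest recovered reads (104020058). Its shares of mitochondrial reads (12.7%) and of reads in features without a symbol (18.4%) were the highest of the libraries. Slm2KO 4 also had the highest count of Ttr, transthyretin of the choroid plexus epithelium, at 2262370, against 376053 to 844419 in Slm2KO 1 to 3 and 219052 to 1791310 in WT. Ttr took 0.192% to 2.02% of the normalised reads of a library. With libraries ordered from lowest to highest Ttr (WT 2, Slm2KO 2, WT 4, Slm2KO 3, Slm2KO 1, WT 1, WT 3, Slm2KO 4), Camk2a fell at each of the 7 steps, a pattern that 0.0429% of tested features showed. Camk2b fell at 5 of the 7 steps. Camk2d rose at 5 of them. This ordering was chosen after the values were seen.

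Markers of other cell types moved with these libraries as well. The summed count of 6 choroid plexus markers ran from 387339 to 2328760 in Slm2KO and from 227760 to 1840830 in WT, with none of the 6 at 0. The sum of 3 excitatory neuron markers (Slc17a7, Neurod6 and Nrn1) ran from 205100 to 287218 in Slm2KO and from 225343 to 263827 in WT. Slm2KO 4 was lowest for this list and for 7 of the 10 marker lists in all, which also include dentate granule cells, CA2 and CA3 pyramidal cells, interneurons, astrocytes, microglia and endothelial cells. For interneurons and astrocytes the margin was slight: 69304 against 69528 in Slm2KO 2, and 69593 against 70095 in WT 1. The oligodendrocyte sum was not low in Slm2KO 4, at 759809 against 599251 in WT 1, its lowest library. For 5 CA1 pyramidal cell markers the sum was lowest in WT 3 at 9873 and next lowest in Slm2KO 4 at 11217, against 14351 or more in the other libraries, and Camk1g was lowest in the same libraries. The 6 dentate granule cell markers summed to 22025 to 29491 in Slm2KO and 29203 to 30884 in WT; all 6 log2 differences were negative, and 0 passed in limma (4 had an unadjusted p under 0.05, against 3.52% of all features). The 5 CA2 and CA3 markers, the 4 astrocyte markers and the 4 endothelial markers were also all negative, and 0 of them passed in limma; 1 CA2 and CA3 marker and 1 astrocyte marker had an unadjusted p under 0.05. Positive differences numbered 4 of 5 for CA1 pyramidal cell markers, 4 of 6 for interneurons, 2 of 3 for excitatory neurons and 3 of 6 for choroid plexus. Oligodendrocyte and microglia markers had 1 of 4 positive each. Of all features tested, 53.9% were negative. The part of tissue make-up in the kinase values was not tested, and in bulk tissue fewer cells of a type and less RNA per cell cannot be told apart. WT 2 and Slm2KO 4, the libraries with the lowest and the highest Ttr, were also the highest and the lowest for Camk2a and Camk2b. Leaving them out raises those differences by construction. The same holds for Camkk1, at 32510 in Slm2KO 4, its lowest library, and 41292 in WT 2, the highest of WT. Slm2KO 4 was lowest for 7 of the 10 kinases, so the signs without it are not independent of that choice. Without WT 2 and Slm2KO 4, 0 of 10 kinases passed in limma. Then 8 of 10 differences were positive, against 3 of 10 with all libraries. Of the kinases, Camkk1 alone had an unadjusted p under 0.05 in limma (log2 difference 0.14, limma adjusted p = 0.770). Without these 2 libraries 5 of 6 dentate granule cell markers were negative (median log2 difference -0.13). So were 4 of 5 CA2 and CA3, 3 of 4 astrocyte and 3 of 4 endothelial markers. All 5 CA1 markers and all 3 excitatory neuron markers were positive.

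**Figure D5:**
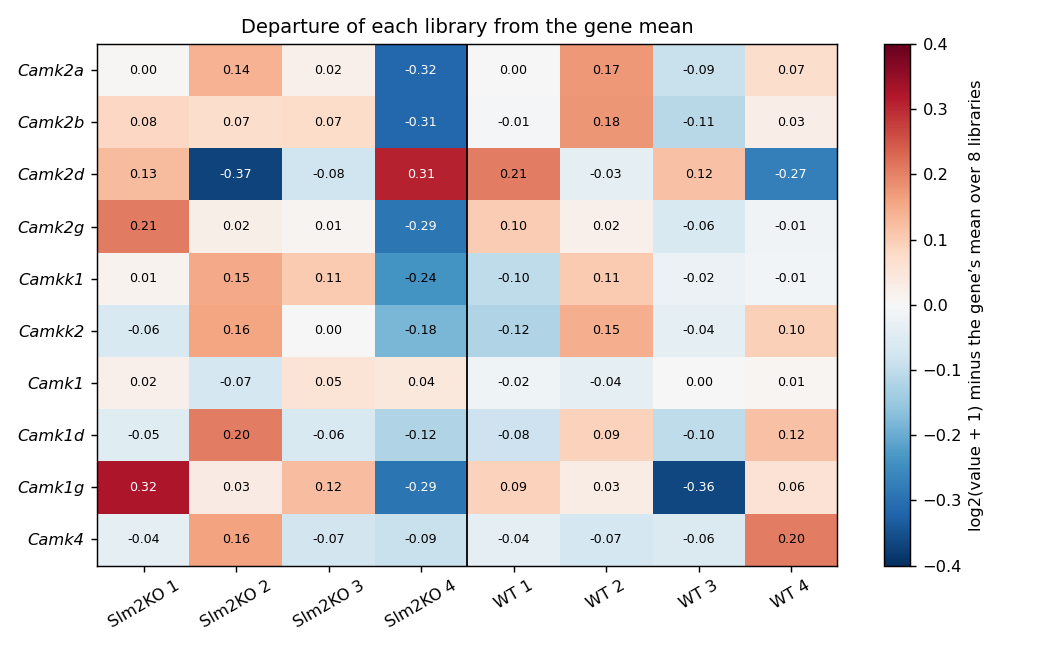
Departure of each library (columns, Slm2KO left of the line and WT right) from the mean log2(count + 1) of each kinase gene over the 8 libraries, in log2 units; red is above and blue below the gene mean. Slm2KO 4 is blue for Camk2a, Camk2b, Camk2g, Camkk1, Camkk2, Camk1d, Camk1g and Camk4, and red for Camk2d and, faintly, Camk1.

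Genes with the most similar profile over the 8 libraries were found by the root mean square difference of mean-centred log2 values, among 14994 named features with a mean count of at least 100. For Camk2a they were Pacsin1 (0.020 log2 units), Dpp6 and Apba2 (0.021 each), against a median of 0.155 over all compared features. For Camk2b they were Zfp653, Carm1 and Ptprn, at 0.023 to 0.024. The nearest profiles to Camk4 were less close, with BC031361 at 0.039, D830031N03Rik at 0.040 and Rala at 0.042.

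Partners of the kinases were listed in 5 groups of 57 genes, of which 56 had a row and were tested and Ppp3r1 was not analysed here. None of the 56 passed in limma, edgeR or DESeq2, and none had an unadjusted limma p under 0.05, where 3.52% of all features did. Among calmodulin, its buffers and CaMKII inhibitors, 5 of 7 differences were positive (median log2 difference 0.08). Camk2n1, an endogenous CaMKII inhibitor, was at 0.12, Gap43, a presynaptic calmodulin-binding protein, at 0.08 and Calm3, one of the calmodulin genes, at -0.09. Of 13 other calmodulin-dependent enzymes and kinase relatives 7 were positive (median 0.00), with Eef2k, the kinase of elongation factor eEF2, at -0.09, Mylk, myosin light chain kinase, at -0.18 and Dapk1, a death-associated kinase, at -0.08.

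Among synaptic and nuclear partners the signs were counted beside the 53.9% of all features that were negative. Of 16 synaptic partners and substrates of CaMKII 13 were negative (median log2 difference -0.04), with Grin2a, an NMDA receptor subunit, at -0.15, Shank3, a postsynaptic scaffold, at -0.12 and Actn4, an actinin, at -0.10. Of 13 genes listed as nuclear and metabolic targets of the CaMKK cascade 12 were negative (median -0.07). Mef2c, a transcription factor, was at -0.17 and Hdac5, a histone deacetylase that CaM kinases drive out of the nucleus, at -0.13. Stk11, at -0.11, encodes the kinase LKB1, which is on this list but is not itself a target of the cascade. Phosphatases that act on CaM kinases were balanced, with 4 of 7 negative (median 0.00), among them Ppm1e, a CaM kinase phosphatase, at -0.07, with Ppp2ca at -0.02 and Ppp1cc at 0.06. The median over all 25667 features was -0.01. Without WT 2 and Slm2KO 4 the synaptic list had 10 of 16 positive (median 0.09) and the nuclear list 8 of 13 negative (median -0.02). The list of calmodulin, its buffers and CaMKII inhibitors then had 7 of 7 positive (median 0.14). The other calmodulin-dependent enzymes had 10 of 13 positive (median 0.11) and the phosphatases 5 of 7 (median 0.02).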

How the data were processed

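RNA-seq libraries of hippocampus were built, per the labels' protocols, with Illumina's TruSeq RNA kit after Trizol extraction. The deposited signal is a gene's read count after scaling by the authors with DESeq, per the submitters' processing notes. FastQC, SAMtools and Picard are named there too, with no version. Neither the read aligner nor the counter is named in the labels or the file. The notes list hg19, whereas the file header gives mm10 coordinates and the symbols are of mouse; coordinates are those of the header. Values were whole multiples of 1 step per library, and dividing by it gave whole reads for 100% of values within 0.001 of a read, with size factors of 0.928 to 1.11.

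Slm2KO and WT were compared on log2(value + 1) in limma (version 3.58.1, under R 4.3.3), with a trended prior and no covariates, over all features with a mean of at least 10, with Benjamini-Hochberg adjustment over all of them. Differences therefore understate changes of low genes. edgeR (version 4.0.16) and DESeq2 (version 1.42.0) were run on the recovered reads, where edgeR called 1 feature. Lengths and coding sequence came from GENCODE vM21, matched by the table's Ensembl identifiers; shares of the 4 CaMKII genes and permutation tests were computed in Python 3.11.15. From each partner list the 3 genes with the smallest p are named; similar profiles are the 3 nearest to Camk2a, Camk2b and Camk4. The kinases, lists and tests were chosen with earlier results of these data known. Splicing was not analysed here.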

Additional observations from a re-analysis of the deposited data

Results flagged for a closer look

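In 3 of 36 groups of 4 libraries checked with Dixon's ratio (10 kinase counts, 4 CaMKII shares, 2 CaMKII sums and 2 ratios, in each label), 1 library stood apart from the other 3, past Dixon's 95% critical value, which chance passes in about 1 of 20 groups. Camk2b had a count of 67708 in Slm2KO 4, against 88498 to 89191 in the other libraries of that label (ratio 0.968). Camk1g had a count of 3271 in WT 3, against 4297 to 4489 in the other WT libraries (ratio 0.843). Camk4 had a count of 2614 in WT 4, against 2158 to 2210 in the other WT libraries (ratio 0.886).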

How the results depend on the processing

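Over 21 alternatives 0 of the 10 kinases and 0 of the 56 partner genes passed the threshold, and the lowest adjusted p of a kinase was 0.770. The number of features of the whole table past the threshold was 1 with all libraries, 2 with a pseudocount of 10 or with log2 Ttr as a covariate, 0 in limma without the trend, 9 in DESeq2, and 0 to 2 with single libraries left out; the cause was not tested. Signs of the kinase differences were not stable. Without WT 2 and Slm2KO 4, an alternative chosen after seeing the data like the Ttr covariate and the transcript length, the log2 difference turned to 0.062 for Camk2a, 0.106 for Camk2b, 0.071 for Camk2g, 0.052 for Camkk2 and 0.054 for Camk1d, and the Camk2d share difference to -0.0187 percentage points. Camk2d turned to 0.017 with quantile normalisation, 0.0046 in edgeR and 0.0037 in DESeq2.

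With each library left out in turn, log2 differences ran from -0.134 to 0.017 for Camk2a, -0.087 to 0.055 for Camk2b, -0.110 to 0.115 for Camk2d, -0.097 to 0.069 for Camk2g, -0.033 to 0.098 for Camkk1, -0.102 to 0.011 for Camkk2, 0.0079 to 0.049 for Camk1, -0.082 to 0.026 for Camk1d, -0.012 to 0.207 for Camk1g and -0.076 to 0.045 for Camk4. The highest value came without Slm2KO 4 for Camk2a, Camk2b, Camk2g, Camkk1, Camkk2, Camk1d and Camk1g. Share differences then ran from -0.956 to -0.120 percentage points for Camk2a, 0.151 to 0.665 for Camk2b, -0.0129 to 0.0259 for Camk2d and -0.0398 to 0.272 for Camk2g.

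The labels state no pairing by replicate number. Deviations of same-numbered libraries correlated at 0.124, 0.323, -0.065 and -0.122. Slm2KO 1 and Slm2KO 2 correlated best with the WT library of the same number. Slm2KO 3 correlated best with WT 4 (0.232) and Slm2KO 4 with WT 3 (0.317), so these values do not settle whether the numbers mark pairs. With the replicate number as a block 0 kinases and 1 feature passed, and the exact paired p of the shares was 0.375 to 1.00; with 4 pairs it cannot go below 0.125, so it could not pass.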

Other observations

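Features listed inside the kinase loci, most without a symbol, held few reads, apart from Ogg1 at the end of Camk1. Camk4 overlapped 12, of which the highest, without a symbol, had a mean count of 24.4. Among these 12 was 2310026I22Rik on the opposite strand, at 11.7. Camk2d overlapped 8, the highest at 13.1. A feature inside Camk2b averaged 170 and 1 inside Camk2a 97.1, each far below the gene itself. Together the CaMKII genes took 0.222% to 0.287% of the normalised reads in Slm2KO and 0.252% to 0.305% in WT, and the ratio of Camkk1 to Camkk2 per kb of merged exons was 12.8 ± 0.657 in Slm2KO and 12.3 ± 0.504 in WT (SD, n = 4 each).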
